A study of Arabidopsis thaliana with 12 samples.

Results

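Seedlings of the tpst mutant that had received 100 nM phytosulfokine (PSK) for 5 h were compared with untreated Col-0 seedlings, the wild type, to describe what still separated the mutant from wild type after low-dose peptide and which genes the peptide carried past the wild-type level. The comparison rests on 6 of the 12 RNA-seq libraries of the series, 3 of tpst with 100 nM PSK and 3 of untreated Col-0. The 3 libraries of untreated tpst show where each gene stood without added peptide, and 3 libraries of tpst with 1 µM PSK only add to the estimate of spread. All seedlings were 7 days old, in the Col-0 background, and had grown whole in liquid MS medium with sucrose. The tpst mutant is 1 T-DNA insertion line, so differences that belong to this line and differences that belong to the missing enzyme cannot be told apart. Each library came from pooled seedlings of an independent replicate. Untreated groups are labelled as time 0, while the study's methods describe water added to them as a mock. If they were harvested at time 0, the peptide and the 5 h that passed with it cannot be told apart. The labels also describe the tissue as whole seedling in one field and as separated shoots and roots in another, and the libraries held both: Rubisco small subunit RBCS1A had 18900, 18230 and 19100 CPM (read counts scaled to a common library size) in PSK-treated tpst and the Casparian strip gene CASP1 had 9.19, 7.44 and 7.28 CPM there.

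PSK is a disulfated peptide of plants that is cut from secreted precursors. TPST, the tyrosylprotein sulfotransferase, adds the sulfate groups that PSK and the related peptides PSY, RGF and CIF need for activity, so a tpst plant makes the precursors but not the active peptides. Sulfated PSK is sensed at the cell surface by the receptor kinases PSKR1 and PSKR2 together with BAK1, and it is known for promoting root and cell growth and for damping responses to microbial patterns. Adding PSK leaves the other sulfated peptides missing.

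The libraries held 21860470 to 24948416 counts in PSK-treated tpst, 20133278 to 24646592 in untreated tpst and 21314381 to 24835416 in Col-0, and 20506 genes passed the filter on low counts. Differences were tested with edgeR's quasi-likelihood test, and a gene was called at a Benjamini-Hochberg adjusted p under 0.05. Values below are CPM, which are not scaled for gene length and are therefore compared only within a gene, and fold changes are fitted log2 values ± standard error (SE). The first principal component (45.7% of the variance) held the 3 Col-0 libraries on one side and all 9 tpst libraries on the other. Among replicates, the third Col-0 library was the most distant: by chi-square of its counts divided by degrees of freedom it scored 14.6 and 16 with Col-0 replicates 1 and 2, while those 2 scored 3.41 with each other and pairs within the tpst groups 2.89 to 4.85.

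TPST (AT1G08030, chromosome 1, 2489409 to 2493327, minus strand, TAIR10) was read first as a check of the labels. It had 6.29, 7.76 and 7.52 CPM in PSK-treated tpst, 6.70, 7.61 and 8.14 CPM in untreated tpst, and 16.9, 17 and 17.3 CPM in Col-0. All 6 mutant libraries lay below all 3 Col-0 libraries, the change in PSK-treated tpst against Col-0 was -1.25 ± 0.13 (log2, adjusted p = 1.6e-08), and the peptide left the level within the spread of untreated tpst (-0.05 ± 0.13, adjusted p = 0.93). Reads of the gene were thus fewer in the mutant but not absent.

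After 100 nM PSK, 6100 of the 20506 genes tested (29.7%) were called against Col-0, 2896 higher and 3204 lower. At a change of 2-fold or more, which 1463 genes (7.13%) reached, the directions were unequal, with 256 genes (1.25%) higher and 1207 (5.89%) lower, and the median change over all genes tested was -0.01. For comparison, 5731 genes (27.9%) were called in untreated tpst against Col-0, of which 203 (0.99% of genes tested) were higher and 1115 (5.44%) lower at 2-fold. In PSK-treated against untreated tpst 656 genes (3.2%) were called, 265 higher and 391 lower, and 152 (0.741%) passed 2-fold. Without Col-0 replicate 3 the count against Col-0 was 6187, and 1484 genes passed 2-fold.

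Sorting each gene by these 3 comparisons, which share libraries and are therefore given as a description, placed 4448 genes (21.7%) as still separated from Col-0, meaning that they were called on the same side of Col-0 with and without the peptide. For 4159 of them the step made by PSK was not called. In 77 genes PSK moved the level toward Col-0 without reaching it, 70 of these being lower than Col-0, and in 212 genes it moved the level further away, 144 of them lower and 68 higher. Another 232 genes (1.13%) were past the Col-0 level: 16 crossed it, being called on opposite sides before and after the peptide, and 216 moved off a level that was not called different from Col-0 in untreated tpst, 57 upward and 159 downward. Of the 1267 genes called only without peptide, 109 had a called step toward Col-0, and for 90 of these the 95% interval of the remaining difference lay within 1.5-fold. Without Col-0 replicate 3, the genes moved toward Col-0 numbered 116, those moved away 324 and those past Col-0 308. Without PSK-treated tpst replicate 3 they numbered 41, 139 and 145.

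**Figure D1:**
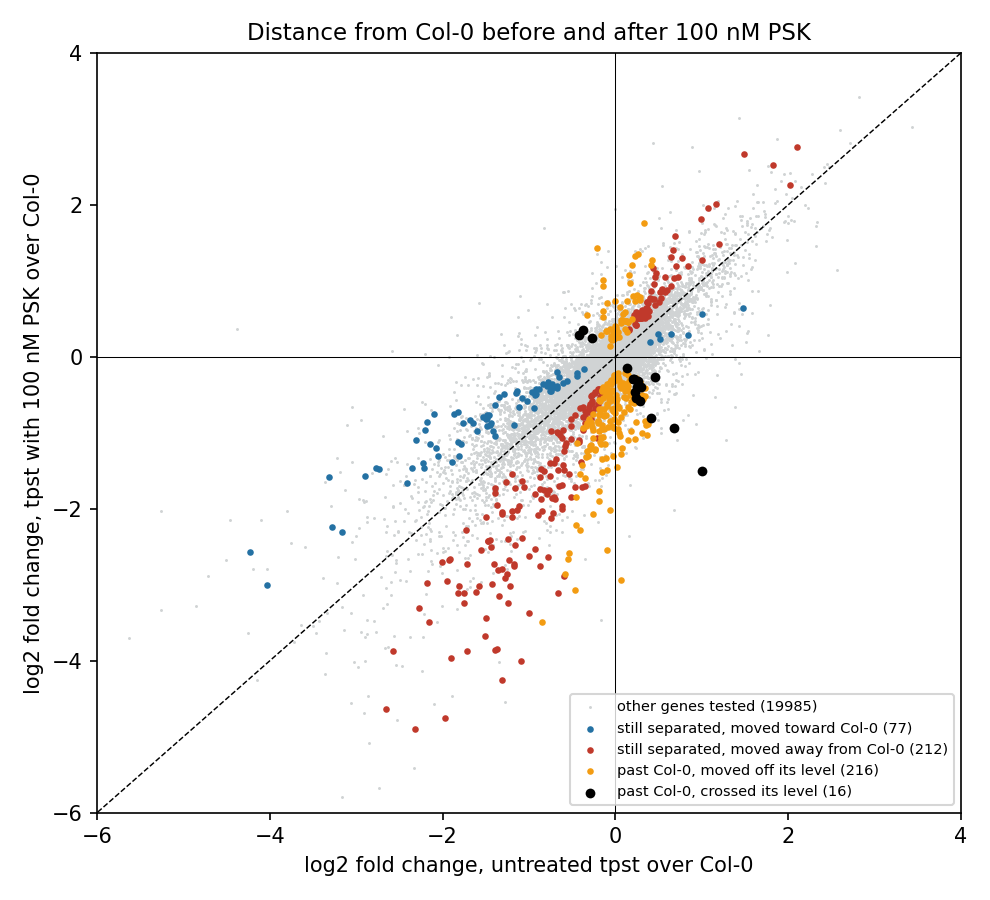
Each point is 1 of 20506 genes tested, placed by its log2 fold change in untreated tpst over Col-0 (horizontal) and in tpst with 100 nM PSK over Col-0 (vertical); 11 genes lie outside the axes. The 2 axes share the Col-0 libraries, so points follow the dashed line of equal values by construction in part, while the coloured genes, whose step from untreated to PSK-treated tpst was called, lie off it: 77 nearer to Col-0, 212 further away, 216 moved off the Col-0 level and 16 across it.

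Within the PSK pathway, 9 of 13 genes tested were called against Col-0, 7 lower and 2 higher, where 15.6% of all genes tested were lower and 14.1% higher. The precursor gene PSK4 (AT3G49780) had 4.36, 4.34 and 3.96 CPM in PSK-treated tpst, 5.64, 5.28 and 4.30 CPM in untreated tpst and 13.5, 15.4 and 12 CPM in Col-0, and it stayed far below Col-0 (-1.69 ± 0.16, adjusted p = 4e-09). PSK1 was lower as well (-1.26 ± 0.23, adjusted p = 8.4e-05), and PSK2, at under 1 CPM in all PSK-treated libraries, passed the threshold narrowly (-1.40 ± 0.52, adjusted p = 0.045) and lost the call when any 1 of 5 libraries was left out. The precursor gene PSK5 went the other way, with 7.35, 7.26 and 6.38 CPM in PSK-treated tpst against 3.42, 4.69 and 4.72 CPM in Col-0 (0.70 ± 0.16, adjusted p = 0.0013), and the groups did not overlap. PSK3 (AT3G44735) was not called (0.31, 95% interval -0.05 to 0.68), nor was SBT1.1, a protease that cuts a PSK precursor (-0.04, interval -0.45 to 0.36).

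Of the receptor genes, PSKR1 was called and PSKR2 was not. PSKR1 (AT2G02220, chromosome 2, 583797 to 587401, minus strand) had 12.5, 13.8 and 10.9 CPM in PSK-treated tpst, 20.3, 19.4 and 18.1 CPM in untreated tpst and 23.3, 16.9 and 19.4 CPM in Col-0. Untreated tpst overlapped Col-0, and only after the peptide did the receptor gene lie below it (-0.68 ± 0.11, adjusted p = 3.7e-05), with a step against untreated tpst of -0.64 ± 0.12 (adjusted p = 9.8e-04). PSKR2 was not called (-0.12, interval -0.30 to 0.06), and the difference between the receptors was not tested. Of the partners, BAK1 was lower by a small margin (-0.29 ± 0.07, adjusted p = 0.0024) and the channel CNGC17 was not called (-0.14, interval -0.35 to 0.07). The proton pump AHA2 had 556, 522 and 534 CPM in PSK-treated tpst, 690, 697 and 660 CPM in untreated tpst and 841, 791 and 833 CPM in Col-0, so that PSK moved it further from Col-0 (-0.61 ± 0.05, adjusted p = 7.4e-11), while the pump AHA1 was slightly higher than Col-0 with or without peptide (0.19 ± 0.04 with it, adjusted p = 0.0014).

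**Figure D2:**
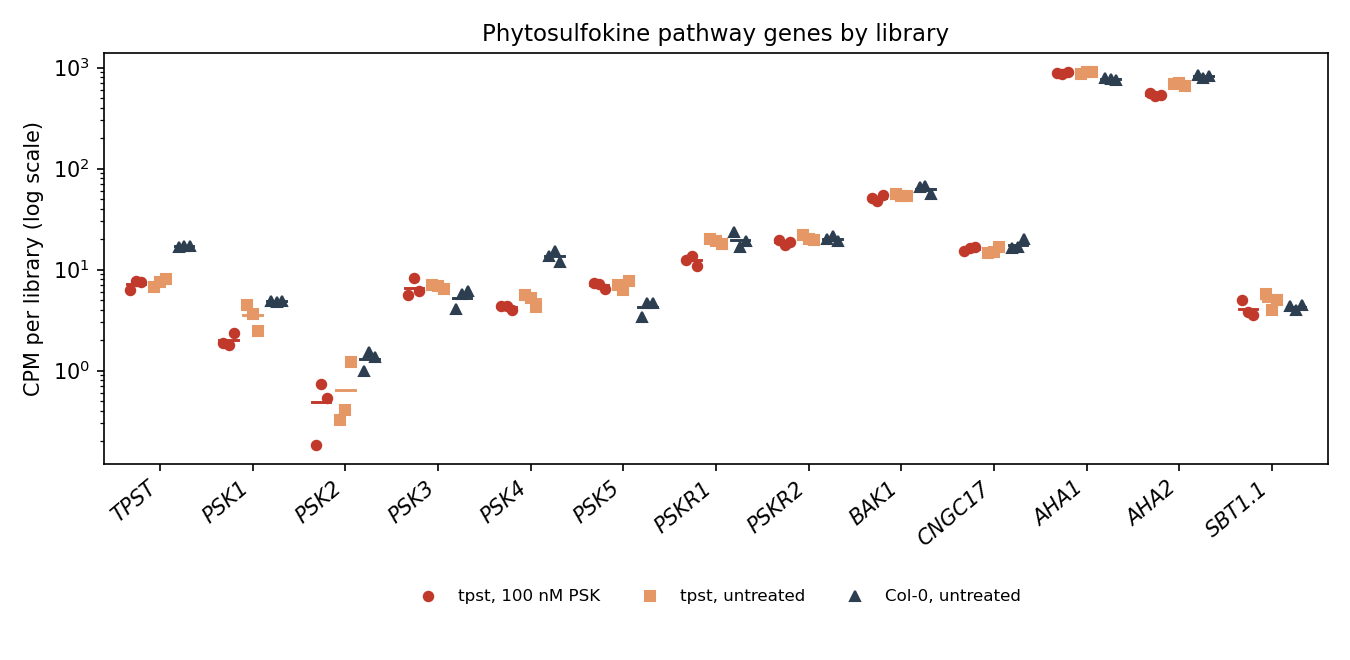
CPM per library on a log axis for the 13 genes tested of the PSK pathway, with the group mean as a bar, in tpst with 100 nM PSK (left of each gene), untreated tpst (middle) and Col-0 (right). TPST and PSK4 lie below Col-0 in all 6 mutant libraries, PSK5 lies above it, and PSKR1 drops below Col-0 only in the 3 PSK-treated libraries.

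Genes for other sulfated peptides and their receptors were lower than Col-0 in 8 of 14 tested (57.1%, against 15.6% of all genes) and higher in none. No step made by PSK was called in this list (over all genes 1.91% stepped down and 1.29% up). The Casparian strip integrity peptide gene CIF2 had 8.68, 7.86 and 9.03 CPM in PSK-treated tpst, 8.49, 7.89 and 9.21 CPM in untreated tpst and 15.7, 19.2 and 18.2 CPM in Col-0 (-1.05 ± 0.12, adjusted p = 7.2e-08). Its receptor gene GSO1 was lower by 0.71 ± 0.12 on the log2 scale (adjusted p = 3.3e-05), the root growth factor gene RGF7 changed by -2.42 ± 0.40 (adjusted p = 3e-05) and PSY1R, a receptor kinase related to PSKR1, by -0.50 ± 0.09 (adjusted p = 1.4e-04).

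Genes of root tissues were among those that stayed low. Of 11 endodermis genes tested, 9 (81.8%, against 15.6% of all genes) were lower than Col-0 and none was higher (median -1.32). Likewise 9 of 16 root hair genes (median -0.65) and 6 of 11 root meristem genes (median -0.70) were lower. No step by PSK was called in any of these lists, where only 3.2% of all genes had a called step. CASP1, a scaffold of the Casparian strip, had 9.19, 7.44 and 7.28 CPM in PSK-treated tpst, 5.96, 8.63 and 5.66 CPM in untreated tpst and 24.5, 21.2 and 17.8 CPM in Col-0 (-1.41 ± 0.15, adjusted p = 1.4e-07). RHD2, the NADPH oxidase of growing root hairs, had 9.37, 8.78 and 8.54 CPM in PSK-treated tpst against 24.8, 20.5 and 20.2 CPM in Col-0 (-1.29 ± 0.12, adjusted p = 2.2e-09). PLT1, a root stem cell factor, was lower (-1.70 ± 0.32, adjusted p = 1.4e-04), whereas WOX5 of the quiescent centre (-0.17) and SCR (-0.08) were not called. Expression of 10 root markers summed to 127 to 133 CPM in PSK-treated tpst, 158 to 166 CPM in untreated tpst and 318 to 355 CPM in Col-0, and 7 of the 10 were called lower. The 8 shoot markers, which are photosynthesis genes, summed to 37840 to 39580 CPM in PSK-treated tpst, 39040 to 39760 CPM in untreated tpst and 30900 to 33010 CPM in Col-0, with 5 of 8 called higher. In whole seedlings, fewer root cells and less RNA per root cell cannot be told apart, and the part of this shift in any single result below was not tested. Of 28 photosynthesis genes 18 (64.3%, against 14.1% of all genes) were higher (median 0.30). The 6 seed storage markers held 16 to 29 counts per PSK-treated library and 10 to 26 per Col-0 library.

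Losses were frequent among class III peroxidases, the secreted enzymes that oxidize cell wall phenolics. Of 59 tested, 37 (62.7%, against 15.6% of all genes) were lower than Col-0 and 3 (5.1%, against 14.1%) were higher (median -0.72). PER32 had 268, 264 and 264 CPM in PSK-treated tpst, 244, 265 and 222 CPM in untreated tpst and 655, 629 and 620 CPM in Col-0 (-1.26 ± 0.06, adjusted p = 4.5e-15), a difference PSK left in place. PER69 (AT5G64100) was moved further down, at 21.4, 22.3 and 23.3 CPM in PSK-treated tpst, 72.1, 65.3 and 49.2 CPM in untreated tpst and 155, 167 and 142 CPM in Col-0 (-2.79 ± 0.14, adjusted p = 4.8e-08). In all, 6 peroxidase genes moved away from Col-0 and 1, PER56, moved toward it (1.22 ± 0.26 against untreated tpst, adjusted p = 0.0056, and -1.09 ± 0.22 against Col-0). The settings for reads that match several places were not given in the sources used here, so values of near-identical peroxidase, aquaporin and transporter genes are less certain than others.

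The ends of the distribution held genes with and without a called step with PSK. QQS (AT3G30720, chromosome 3, 12349047 to 12349933, plus strand), a gene of Arabidopsis alone that affects starch content, had 0.23, 0.37 and 0.368 CPM in PSK-treated tpst, 0.229, 0.45 and 0.253 CPM in untreated tpst and 33.1, 36.9 and 31.6 CPM in Col-0 (-6.68 ± 0.24, adjusted p = 1.6e-16). AT4G29200 had 926, 933 and 1002 counts in PSK-treated tpst against 0, 4 and 0 counts in Col-0, a ratio of 710 (95% counting interval 277 to 2610), and AT2G01422 had 246, 253 and 248 counts against 0, 0 and 1 count, a ratio of 741 (133 to 29300). Both were also high in untreated tpst (40.7 to 42.7 CPM and 6.78 to 10.9 CPM). The step by PSK was not called for 10 of the 12 genes highest above Col-0 or for 5 of the 12 lowest below it. Over all genes tested only 3.2% had a called step, so called steps were more frequent at both ends. The comparisons share the PSK-treated libraries, so this is a description. An exception at the top was BAM5, a beta-amylase, with 53.6, 47.0 and 54.1 CPM in PSK-treated tpst, 38.1, 31.3 and 28.1 CPM in untreated tpst and 7.70, 5.72 and 9.26 CPM in Col-0 (2.76 ± 0.14, adjusted p = 2.6e-10). At the bottom, most of the 12 genes had a called step further down, among them MLO12 and the receptor-like kinase genes AT1G51790 and AT1G51890.

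Of 24 genes of the response to microbial patterns tested, 17 were lower in PSK-treated tpst than in Col-0 and 1, ATL2, was higher (median -1.38). In untreated tpst 10 were lower and 3 higher (median -0.35, with 14.6% of all genes lower and 13.3% higher). The step by PSK was called downward for 9 and upward for none (median -0.76), and 6 of the 24 were moved further from Col-0 and 3 off its level. Over all genes, 15.6% were lower and 14.1% higher after PSK, and 1.91% stepped down. Members of this list were chosen with earlier results of these data known. They include MLO12, IOS1 and FOX1, which the paper reports as lowered by PSK, so the counts are a description only. MLO12 (AT2G39200, chromosome 2, 16356041 to 16359943, minus strand), a membrane protein of the powdery mildew susceptibility family, had 0.781, 0.924 and 0.409 CPM in PSK-treated tpst, 6.15, 5.32 and 4.70 CPM in untreated tpst and 15.3, 11.8 and 13.1 CPM in Col-0. The 3 groups did not overlap, and the change was -4.26 ± 0.25 against Col-0 (adjusted p = 4.1e-13) and -2.95 ± 0.26 against untreated tpst (adjusted p = 2.2e-08). IOS1 (AT1G51800, chromosome 1, 19214072 to 19218053, plus strand), a receptor-like kinase of pattern-triggered immunity, had 3.95, 3.00 and 4.70 CPM in PSK-treated tpst, 17.2, 15.2 and 14.4 CPM in untreated tpst and 35.8, 33.2 and 41.8 CPM in Col-0 (-3.24 ± 0.14 against Col-0, adjusted p = 3e-15). PER71 (AT5G64120), a peroxidase, had 27.8, 27 and 24.9 CPM in PSK-treated tpst, 107, 89.7 and 91.2 CPM in untreated tpst and 156, 166 and 173 CPM in Col-0 (-2.63 ± 0.09 against Col-0, adjusted p = 6.6e-14). CYP81F2, an enzyme of indole glucosinolate modification, had 1.88, 2.27 and 2.17 CPM in PSK-treated tpst, 6.70, 4.42 and 7.54 CPM in untreated tpst and 12.7, 15 and 14.2 CPM in Col-0 (-2.73 ± 0.20, adjusted p = 2.7e-11). In all 4 genes untreated tpst lay between Col-0 and PSK-treated tpst. The sorting sets that order, since all 4 are among the 6 genes moved further from Col-0. Over the same step, summed root hair markers were at 137 to 149 CPM in PSK-treated tpst and 123 to 148 CPM in untreated tpst, and summed endodermis markers at 69.1 to 82.4 CPM in PSK-treated and 65.9 to 74.6 CPM in untreated tpst. The 10 root markers summed to 127 to 133 CPM in PSK-treated and 158 to 166 CPM in untreated tpst, without overlap. Of these 10, 2 (PHT1;1 and NRT2.1) had a called downward step with PSK and 1 (TIP2;3) an upward one. By the CPM given below, PHT1;1 and NRT2.1 together fell by more than the sum did. The lower sum therefore does not show a fall of the other root markers. The part of these markers in the step of the pattern response genes was not tested.

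**Figure D3:**
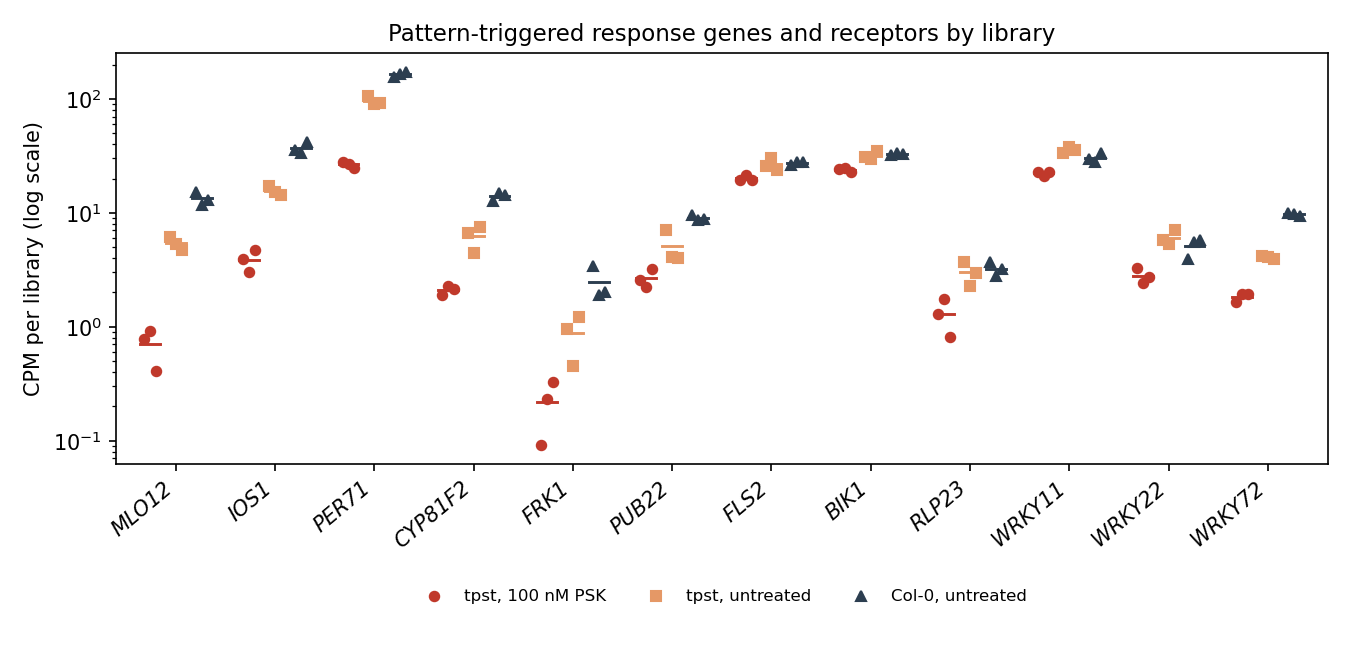
CPM per library on a log axis for 12 genes of the pattern response, its receptors and WRKY factors, with the group mean as a bar, in tpst with 100 nM PSK (left of each gene), untreated tpst (middle) and Col-0 (right). For MLO12, IOS1, PER71 and CYP81F2 untreated tpst lies between the other groups, whereas for FLS2, BIK1 and RLP23 it overlaps Col-0 and only the PSK-treated libraries lie lower.

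Of 18 pattern-recognition receptors and partners tested, 11 were lower than Col-0 and none was higher (median -0.31), while in untreated tpst 4 were lower (median -0.11). The step by PSK was called downward for 5, of which 4 moved off the Col-0 level. Over all genes tested, 15.6% were lower after PSK, 14.6% were lower in untreated tpst and 1.91% stepped down. FLS2, the flagellin receptor, had 19.5, 21.7 and 19.6 CPM in PSK-treated tpst, 25.8, 30.4 and 23.8 CPM in untreated tpst and 26.4, 27.7 and 27.9 CPM in Col-0 (-0.43 ± 0.09 against Col-0, adjusted p = 5.2e-04). BIK1, the cytoplasmic kinase that acts downstream of several receptors, had 24.1, 24.7 and 23.0 CPM in PSK-treated tpst, 31.1, 29.7 and 34.6 CPM in untreated tpst and 32.0, 33.4 and 32.8 CPM in Col-0 (-0.45 ± 0.08, adjusted p = 6.4e-05). RLP23, the receptor for NLP peptides, had 1.29, 1.76 and 0.817 CPM in PSK-treated tpst, 3.72, 2.29 and 2.98 CPM in untreated tpst and 3.69, 2.82 and 3.19 CPM in Col-0 (-1.33 ± 0.28, adjusted p = 4.9e-04). BKK1, a co-receptor related to BAK1, likewise moved off (-0.38). LYK4, of chitin sensing, was already low in untreated tpst and moved further (-1.80 against Col-0, -0.87 against untreated tpst). The peptide receptor kinase FER (-0.03) and the chitin receptor kinase LYK5 (0.01) were not called.

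WRKY transcription factors, which bind the W-box in promoters of defence genes, were lower in 30 of 54 tested and higher in 4 (median -0.59). In untreated tpst 20 were lower and 6 higher (median -0.30), and PSK made a called downward step in 10 and an upward step in none. The shares over all genes were 15.6% lower and 14.1% higher after PSK, and 14.6% lower and 13.3% higher in untreated tpst. Downward steps were called in 1.91% of all genes. WRKY72 had 1.65, 1.94 and 1.92 CPM in PSK-treated tpst, 4.22, 4.13 and 3.94 CPM in untreated tpst and 9.99, 9.81 and 9.33 CPM in Col-0 (-2.4 ± 0.18, adjusted p = 1.2e-10), and WRKY27 (-2.12) and WRKY49 moved away from Col-0 in the same manner. WRKY49, whose call as moved away was lost under limma-voom and without any 1 PSK-treated or untreated tpst library, is thinly covered, with 4, 4 and 0 counts in PSK-treated tpst against 58, 65 and 150 counts in Col-0, a ratio of 0.0291 (95% counting interval 0.0124 to 0.0581). WRKY7, WRKY15, WRKY22, WRKY47 and WRKY53 moved off a level not called different from Col-0, WRKY22 being at 3.31, 2.4 and 2.74 CPM in PSK-treated tpst, 5.83, 5.36 and 7.03 CPM in untreated tpst and 3.96, 5.59 and 5.74 CPM in Col-0 (-0.86 ± 0.20, adjusted p = 0.0015). WRKY11 (AT4G31550, chromosome 4, 15289788 to 15291934, minus strand) crossed: it had 22.6, 21.1 and 22.8 CPM in PSK-treated tpst, 33.4, 37.8 and 35.8 CPM in untreated tpst and 29.9, 28.2 and 33.3 CPM in Col-0. It lay above Col-0 without peptide (0.23) and below it with peptide (-0.46 ± 0.09, adjusted p = 1.5e-04), though its call as crossed held under only 10 of 20 other settings. Of those higher than Col-0, WRKY44, a regulator of trichomes and seed coat, had 12.1, 11.9 and 10.5 CPM in PSK-treated tpst against 4.05, 4.91 and 5.44 CPM in Col-0 (1.25 ± 0.16, adjusted p = 7.3e-07).

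The promoters of 3 such genes are printed because they carry the motif that WRKY proteins bind and stand for courses seen above, namely further away (MLO12 and IOS1) and crossed (WRKY11). Each is the 300 bases before the annotated gene start, read 5′ to 3′ on the gene's strand from the RefSeq genome TAIR10.1. Capitals mark TTGACT or TTGACA, or the same motif on the other strand (AGTCAA or TGTCAA). They span chr2:16359944-16360243 (minus strand) for MLO12, chr1:19213772-19214071 (plus strand) for IOS1 and chr4:15291935-15292234 (minus strand) for WRKY11.
MLO12: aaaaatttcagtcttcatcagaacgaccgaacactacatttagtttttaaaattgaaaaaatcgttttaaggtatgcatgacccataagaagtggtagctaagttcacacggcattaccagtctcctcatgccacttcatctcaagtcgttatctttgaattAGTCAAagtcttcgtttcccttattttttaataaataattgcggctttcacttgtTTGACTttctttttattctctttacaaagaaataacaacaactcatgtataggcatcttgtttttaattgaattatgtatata
IOS1: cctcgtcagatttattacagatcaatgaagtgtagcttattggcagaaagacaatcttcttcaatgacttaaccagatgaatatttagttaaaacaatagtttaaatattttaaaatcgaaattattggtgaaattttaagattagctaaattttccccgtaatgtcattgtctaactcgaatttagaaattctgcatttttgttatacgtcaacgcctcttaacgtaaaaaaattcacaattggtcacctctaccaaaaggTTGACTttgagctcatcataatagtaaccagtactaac
WRKY11: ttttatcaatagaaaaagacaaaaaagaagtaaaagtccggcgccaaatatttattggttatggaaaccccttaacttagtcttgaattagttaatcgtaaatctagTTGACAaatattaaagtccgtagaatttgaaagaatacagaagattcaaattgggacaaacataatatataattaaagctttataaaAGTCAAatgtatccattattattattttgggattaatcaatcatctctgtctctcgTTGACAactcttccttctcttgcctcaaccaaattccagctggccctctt
MLO12 held 2 matches, IOS1 1 and WRKY11 3.

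Over all 20408 genes tested on chromosomes 1 to 5, 37.8% held TTGACT or TTGACA on either strand in this window. The share was 64% of the 172 genes that ended below Col-0 after moving past it and 61.8% of the 144 genes that moved further below it, against 35% of the 60 that ended above it, 33.8% of the 68 that moved further above it and 32.9% of the 70 that were below Col-0 and moved toward it. With TTGACT or TTGACC as the motif the background was 31.9% and the first 2 shares were 59.9% and 58.3%. These shares are descriptions with no test, and a match is not evidence of binding.

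Of 19 salicylic acid genes tested, 6 (31.6%, against 15.6% of all genes) were lower and 1, PR2, was higher (median -0.17). No step by PSK was called, where only 3.2% of all genes had a called step. CBP60G, an activator of salicylic acid synthesis, had 2.71, 2.54 and 2.66 CPM in PSK-treated tpst against 6.12, 9 and 5.51 CPM in Col-0 (-1.38 ± 0.23, adjusted p = 4.2e-05), and DMR6, which hydroxylates salicylic acid, was lower by a similar amount (-1.36 ± 0.14, adjusted p = 4e-08). The synthesis enzyme ICS1 (-0.10) was not called. Among genes of indole glucosinolates and camalexin, 10 of 20 were lower and 3 higher. PEN3, an ABC transporter of defence at the cell surface, had 366, 369 and 381 CPM in PSK-treated tpst, 544, 501 and 534 CPM in untreated tpst and 535, 502 and 537 CPM in Col-0 (-0.50 ± 0.05, adjusted p = 5.9e-09). PEN2, the myrosinase of indole glucosinolates, had 106, 97.0 and 101 CPM in PSK-treated tpst, 147, 146 and 153 CPM in untreated tpst and 152, 142 and 181 CPM in Col-0, and it too moved off the Col-0 level (-0.65 ± 0.07, adjusted p = 2.3e-08).

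Many jasmonate and aliphatic glucosinolate genes lay above Col-0 after PSK. Of 24 jasmonate genes 10 (41.7%, against 14.1% of all genes) were higher and 2 lower (median 0.54). No step by PSK was called, where only 3.2% of all genes had a called step. LOX2, the chloroplast lipoxygenase of jasmonate synthesis, had 1204, 1119 and 1257 CPM in PSK-treated tpst, 1162, 1052 and 1154 CPM in untreated tpst and 381, 336 and 446 CPM in Col-0 (1.62 ± 0.09, adjusted p = 2.1e-08). CORI3, a jasmonate-induced lyase, had 253, 274 and 295 CPM in PSK-treated tpst against 61.1, 51.2 and 62.8 CPM in Col-0 (2.23 ± 0.07, adjusted p = 4.2e-15), and AOS, the allene oxide synthase, changed by 1.43 ± 0.07 (adjusted p = 9.6e-14). Aliphatic glucosinolate genes were higher in 14 of 20 tested and lower in 1, CYP79F2 (median 0.26), with FMOGS-OX3 at 75.0, 72.2 and 75.7 CPM in PSK-treated tpst against 39.8, 41.1 and 45.7 CPM in Col-0 (0.81 ± 0.07, adjusted p = 2.9e-10). The sum of the shoot markers given above was also higher in the same libraries (median log2 change 0.25, lowest -0.67, highest 0.47). The part of this shift in the jasmonate and aliphatic glucosinolate changes was not tested.

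Nutrient uptake held further genes that PSK carried away from Col-0. PHT1;1, a root phosphate transporter, had 14.4, 16.0 and 15.9 CPM in PSK-treated tpst, 44.8, 48.3 and 43.4 CPM in untreated tpst and 128, 124 and 116 CPM in Col-0 (-2.99 ± 0.07 against Col-0, adjusted p = 3.1e-21, and -1.56 ± 0.07 against untreated tpst, adjusted p = 9.5e-14). NRT3.1, the partner protein of high-affinity nitrate transporters, had 10.3, 11.1 and 9.15 CPM in PSK-treated tpst, 27.5, 22.7 and 27.2 CPM in untreated tpst and 43.3, 39 and 36.7 CPM in Col-0 (-1.96 ± 0.11, adjusted p = 1.3e-13). NRT1.1, the dual-affinity nitrate transporter, crossed, with 172, 177 and 172 CPM in PSK-treated tpst, 252, 244 and 242 CPM in untreated tpst and 215, 203 and 222 CPM in Col-0 (-0.30 ± 0.06 against Col-0, adjusted p = 1.5e-04). NRT2.1, the main high-affinity nitrate transporter, had 1.65, 4.25 and 2.82 CPM in PSK-treated tpst, 17.7, 12.2 and 15.6 CPM in untreated tpst and 9.36, 3.8 and 5.55 CPM in Col-0. Its excess in untreated tpst was gone after PSK, and the remaining difference from Col-0 was not called (-1.09, interval -2.08 to -0.11). In all, 6 of 10 nitrate and phosphate genes (60.0%, against 15.6% of all genes) were lower than Col-0 and none was higher. PSK made 6 called steps, each downward, where 1.91% of all genes stepped down.

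Among 17 sulfur genes tested, 2 sulfate importers (11.8%, against 15.6% of all genes) were lower and 12 genes (70.6%, against 14.1%) higher. The root sulfate importer SULTR1;2 had 24.4, 21.8 and 21.4 CPM in PSK-treated tpst, 51.7, 42.2 and 41.9 CPM in untreated tpst and 100, 73.6 and 73.5 CPM in Col-0 (-1.87 ± 0.13, adjusted p = 2.9e-07), and SULTR1;1 was lower too (-2.09). The higher ones (median of the list 0.79) included the sulfate transporters SULTR2;1 (0.93) and SULTR4;2 (0.79). APR2, an APS reductase of sulfate assimilation, had 121, 114 and 125 CPM in PSK-treated tpst, 110, 116 and 111 CPM in untreated tpst and 62.0, 63.2 and 61.5 CPM in Col-0 (0.95 ± 0.06, adjusted p = 1.3e-12). LSU1, a marker of low sulfur, moved off upward, with 4.41, 3.88 and 4 CPM in PSK-treated tpst, 2.29, 1.35 and 2.17 CPM in untreated tpst and 2.48, 1.41 and 1.09 CPM in Col-0 (1.32 ± 0.30, adjusted p = 0.0013). Iron uptake genes remained low, and no step by PSK was called among the iron genes, where only 3.2% of all genes had a called step. The root iron transporter IRT1 had 27.1, 28.9 and 25.7 CPM in PSK-treated tpst, 39.7, 24.4 and 25.5 CPM in untreated tpst and 188, 176 and 156 CPM in Col-0 (-2.67 ± 0.18, adjusted p = 3.1e-06), and its regulator FIT (-2.82 ± 0.18) and the reductase FRO2 (-2.89 ± 0.28) were lower as well. Over 21 iron genes 7 (33.3%, against 15.6% of all genes) were lower and 4 (19.0%, against 14.1%) higher. Without Col-0 replicate 3 the higher ones numbered 9.

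Of 28 aquaporins, or water channels, tested, 12 had a called upward step with PSK and none a downward one. Over all genes 1.29% stepped up and 1.91% down. Of these 12, 5 approached Col-0 from below without reaching it, and a further 4 had no called difference left. TIP2;3 had 5.47, 4.53 and 5.64 CPM in PSK-treated tpst, 1.93, 1.84 and 0.86 CPM in untreated tpst and 18.8, 17.4 and 10.7 CPM in Col-0, so it was still lower (-1.58 ± 0.25, adjusted p = 1.7e-04) after a step of 1.73 ± 0.31 (adjusted p = 0.005). PIP2;4, at 6.43, 6.38 and 8.13 CPM in PSK-treated tpst, 4.22, 4.33 and 2.63 CPM in untreated tpst and 21.9, 19.8 and 16.2 CPM in Col-0, took the same path (-1.46 ± 0.15 against Col-0, adjusted p = 1.8e-08). PIP2;1 had 300, 309 and 325 CPM in PSK-treated tpst, 201, 216 and 223 CPM in untreated tpst and 308, 288 and 230 CPM in Col-0, and its remaining difference was not called (0.18, interval 0.00 to 0.35). TIP1;2, which was not called against Col-0 before, moved off it upward by a small amount (0.26), and PIP1;4, already above Col-0, moved further away (0.36). The call of PIP1;4 as moved away was lost under 5 of 20 other settings. Against Col-0, 10 aquaporins were lower and 7 higher in PSK-treated tpst.

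The triterpene genes of the thalianol cluster on chromosome 5 had a called upward step with PSK in all 3 tested, of 7 names listed. Over all genes 1.29% stepped up. THAS1, the thalianol synthase, had 57.7, 44.3 and 58.2 CPM in PSK-treated tpst, 29.3, 17.9 and 19.6 CPM in untreated tpst and 42.5, 33.4 and 35.4 CPM in Col-0. The PSK-treated libraries all lay above the Col-0 libraries, but the difference did not pass the threshold over all genes (0.53, interval 0.09 to 0.96, adjusted p = 0.07). CYP705A5 had 37.5, 33.7 and 40.5 CPM in PSK-treated tpst, 17, 13.9 and 14.4 CPM in untreated tpst and 33.1, 35.9 and 39.3 CPM in Col-0, and the interval of its remaining difference was narrow (0.04, -0.14 to 0.23). CYP708A2 stood at 0.28 (0.03 to 0.54). Of the genes for other root triterpenes, CYP71A16 of marneral moved toward Col-0 without reaching it (-0.75), and PEN1, the arabidiol synthase, stayed low (-1.16). The call of CYP71A16 as moved toward was lost under 5 of 20 other settings, among them those without any 1 PSK-treated library.

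**Figure D4:**
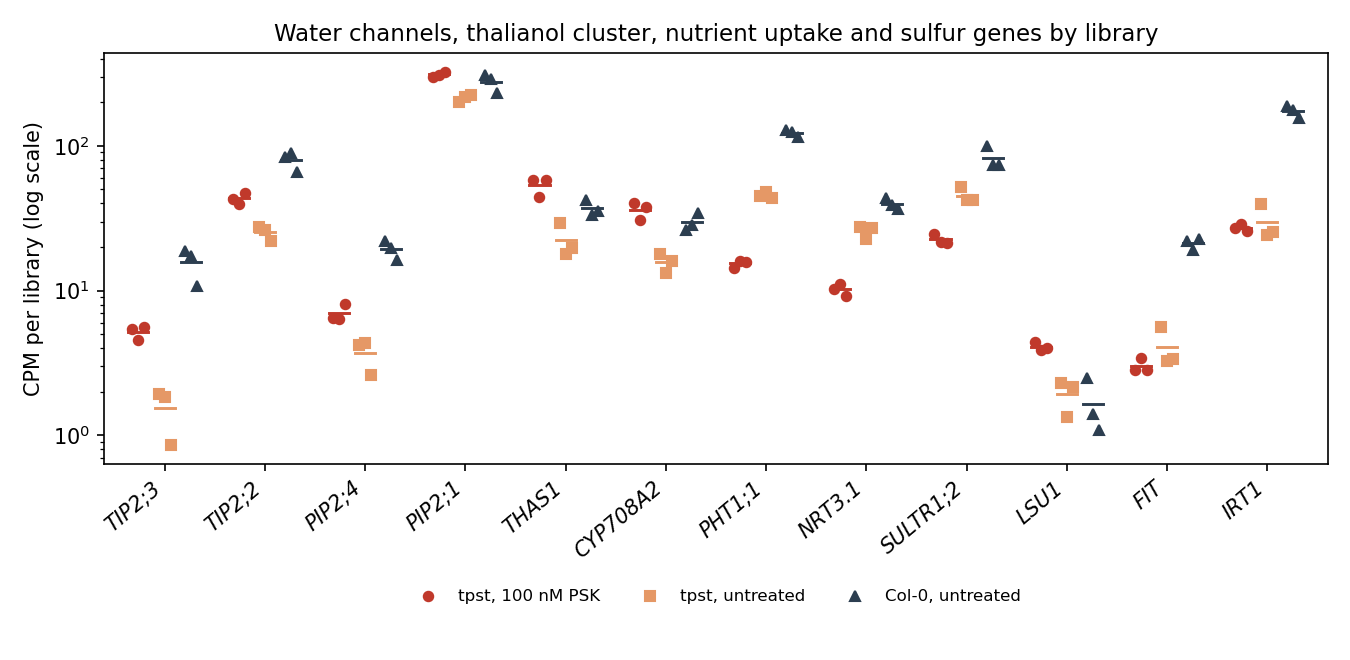
CPM per library on a log axis for 4 water channels, 2 thalianol genes, 3 root transporters, LSU1 and 2 iron uptake genes, with the group mean as a bar, in tpst with 100 nM PSK (left of each gene), untreated tpst (middle) and Col-0 (right). The 4 water channels and 2 thalianol genes shown are higher with PSK than without, PHT1;1, NRT3.1 and SULTR1;2 lie further below Col-0 with PSK, and FIT and IRT1 lie far below Col-0 with and without it.

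Among the 16 genes that crossed the Col-0 level, 13 did so downward. KCS12 (AT2G28630, chromosome 2, 12274468 to 12277417, minus strand), a ketoacyl-CoA synthase of very-long-chain fatty acids, had 1.29, 1.62 and 1.76 CPM in PSK-treated tpst, 7.98, 8.55 and 10.2 CPM in untreated tpst and 3.74, 4.57 and 4.99 CPM in Col-0, and no 2 of the 3 groups overlapped (-1.51 ± 0.22 against Col-0, adjusted p = 5.4e-06, and -2.51 ± 0.21 against untreated tpst, adjusted p = 1e-08). ABCB14, a malate importer of guard cells, had 8.27, 7.35 and 7.03 CPM in PSK-treated tpst, 17.3, 17 and 18.2 CPM in untreated tpst and 12.4, 13.5 and 13.5 CPM in Col-0 (-0.80 ± 0.11 against Col-0, adjusted p = 3.5e-06). In both genes the call as crossed held under all 20 other settings. CIPK14, a calcium-sensor-interacting kinase, was 1 of the 3 that crossed upward, with 18.5, 20.2 and 18.4 CPM in PSK-treated tpst, 11.8, 13.2 and 9.26 CPM in untreated tpst and 16.4, 14.6 and 13.9 CPM in Col-0 (0.35 ± 0.12, adjusted p = 0.032). Its call as crossed was lost under 8 of 20 other settings, in each of which 1 library was left out.

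Genes that moved off the Col-0 level downward were led by AT5G40590 (-3.07 ± 0.31) and ACS7, an ethylene precursor synthase. ACS7 had 1.65, 2.73 and 2.04 CPM in PSK-treated tpst, 9.27, 7.65 and 9.61 CPM in untreated tpst and 14.4, 8.28 and 15.7 CPM in Col-0 (-2.58 ± 0.24, adjusted p = 7.8e-08). That untreated tpst was not called against Col-0 does not show equal levels of ACS7. For each of these genes the call as moved off was lost under 3 of 20 other settings, for ACS7 including DESeq2. The endochitinase gene AT2G43620 had 27.7, 33.6 and 26.5 CPM in PSK-treated tpst, 65.8, 55.3 and 78.3 CPM in untreated tpst and 68.1, 72.1 and 81.7 CPM in Col-0 (-1.34 ± 0.17, adjusted p = 2.3e-04). NPF5.2, a peptide transporter, was at -1.77 ± 0.28 and the cysteine-rich secreted protein CRRSP55 at -1.28 ± 0.15. Upward, SCPL10, an acyltransferase of the serine carboxypeptidase family that acts on anthocyanins, had 33.4, 25.4 and 25.8 CPM in PSK-treated tpst, 14.6, 12.7 and 12.3 CPM in untreated tpst and 11.5, 10.4 and 11.2 CPM in Col-0 (1.35 ± 0.15, adjusted p = 1.7e-06). CYP75B1, the flavonoid 3′-hydroxylase TT7, had 175, 143 and 154 CPM in PSK-treated tpst, 89.0, 74.4 and 70.5 CPM in untreated tpst and 74.0, 64.7 and 65.9 CPM in Col-0 (1.21 ± 0.15, adjusted p = 3.1e-04). The sugar exporter SWEET13 (1.07 ± 0.19) and the homeobox gene ATHB-7 (0.97 ± 0.12) followed.

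Genes of the still-separated class that PSK moved furthest away from Col-0 included PCR8, of the plant cadmium resistance family, with 4.23, 4.16 and 2.41 CPM in PSK-treated tpst, 20.1, 18.0 and 17.2 CPM in untreated tpst and 42.5, 34.9 and 33.5 CPM in Col-0 (-3.37 ± 0.16, adjusted p = 1.5e-13). AT3G46280, a kinase-like gene, had 5.97, 4.81 and 6.13 CPM in PSK-treated tpst, 34.3, 33.9 and 24.0 CPM in untreated tpst and 53.7, 40.9 and 52.0 CPM in Col-0 (-3.11 ± 0.15, adjusted p = 2.9e-11). The leucine-rich repeat receptor-like kinase genes AT1G05700 (-2.88 ± 0.18), AT1G51790 (-3.67 ± 0.18) and AT1G51890 (-3.88 ± 0.23) did the same, the last 2 of which lie near IOS1 on chromosome 1. Toward Col-0, besides TIP2;3, the lipid-transfer gene AT5G46900 had 3.72, 2.50 and 5.03 CPM in PSK-treated tpst, 1.70, 1.31 and 0.506 CPM in untreated tpst and 22.4, 24.4 and 20.3 CPM in Col-0, and it remained far below Col-0 (-2.57 ± 0.22, adjusted p = 1.2e-07).

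Of 23 cell cycle genes tested, 1 was lower, the endoreduplication gene SIM (-1.0 ± 0.22, adjusted p = 8.6e-04), and 1 higher, KRP1 (0.41), that is 2 of 23 where 29.7% of all genes were called. Of 20 clock genes 4 (20.0%) were higher and 1 (5.0%) lower, where 14.1% of all genes were higher and 15.6% lower. The morning gene CCA1 (0.01) and the evening gene TOC1 (-0.07) were not called. Of 13 hypoxia genes tested 2 (15.4%) were higher and 3 (23.1%) lower, not far from those shares. LBD41, a hypoxia-induced factor, had 20.0, 47.8 and 59.9 CPM in PSK-treated tpst, 5.69, 9.45 and 20.3 CPM in untreated tpst and 6.03, 5.29 and 7.38 CPM in Col-0 (2.77 ± 0.60, adjusted p = 0.0081), a wide spread within both tpst groups. Of the other hypoxia genes, alcohol dehydrogenase ADH1 (-0.12) and pyruvate decarboxylase PDC1 (-0.10) were not called.

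**Figure D5:**
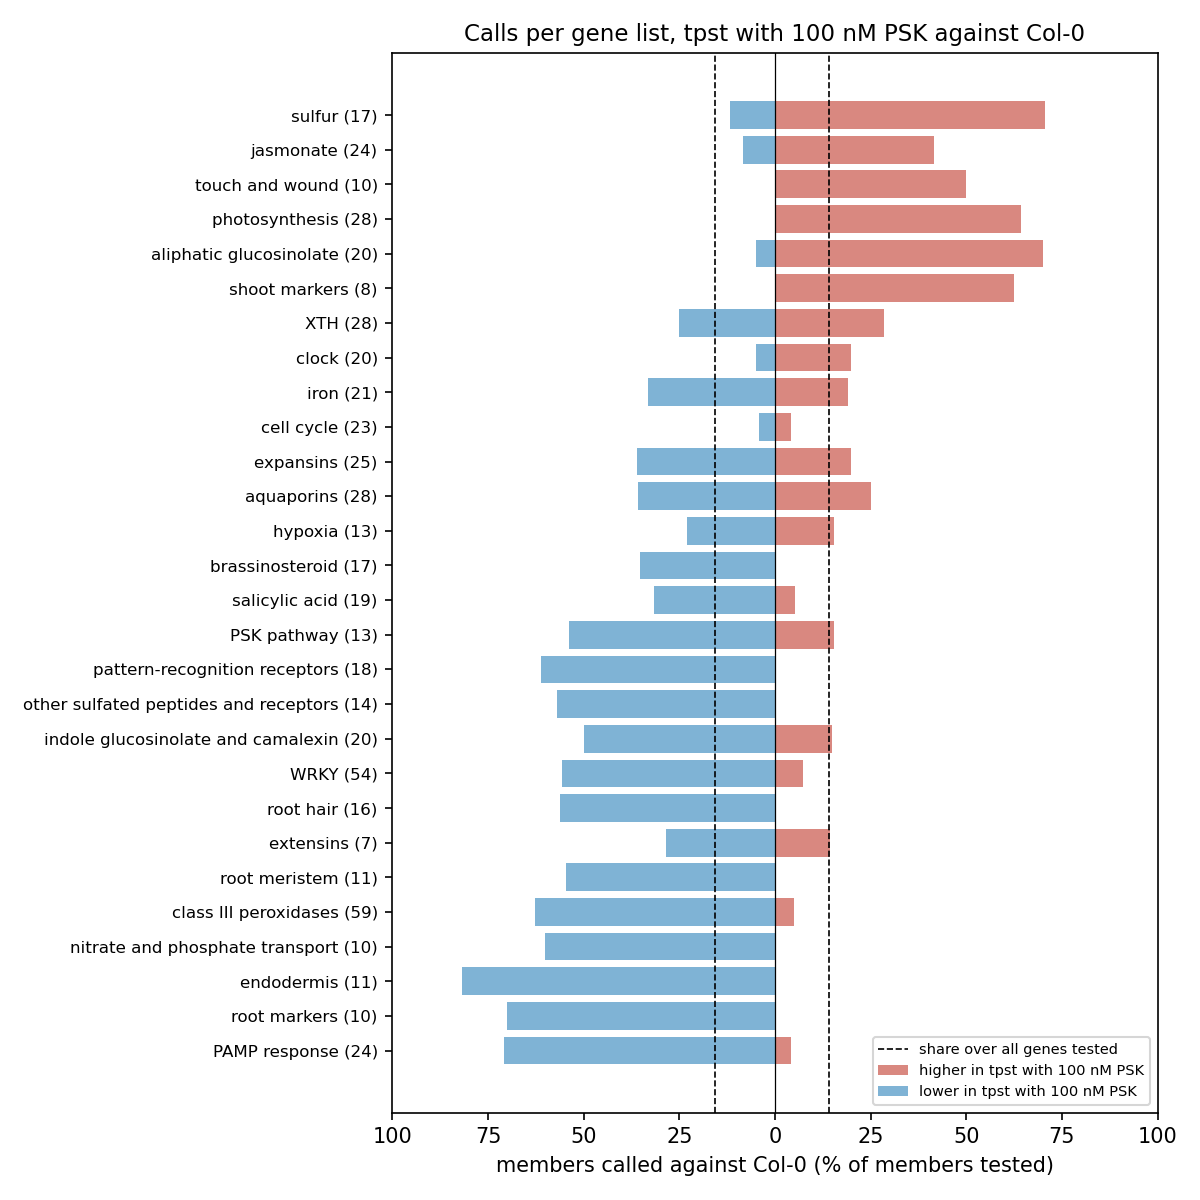
Share of the genes tested in each list (number in brackets, lists of 7 or more) that were called lower (left) or higher (right) in tpst with 100 nM PSK against Col-0, ordered by median log2 change. Dashed lines mark the shares over all genes tested, 15.6% lower and 14.1% higher; sulfur, jasmonate, photosynthesis and aliphatic glucosinolate lists lie to the right, and pattern response, endodermis, peroxidase and WRKY lists to the left.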

How the data were processed

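The deposited table holds raw read counts per gene, made by the authors, who prepared poly(A) libraries from total RNA and, per the labels and their methods, aligned trimmed reads to TAIR10 with HISAT2 2.0.5 and counted them with featureCounts 1.5.0-p3. Strand and multi-mapping settings are not given in the sources used here. A deposited FPKM table of the same libraries was not used. Replicates are described by the authors as independent biological replicates of pooled seedlings, and p-values measure the spread between these samples.

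Genes were kept with filterByExpr (20506 of 32833 genes, 99.96% of counts), scaled with TMM (factors 0.974 to 1.075) and fitted with 1 term per group over all 12 libraries (8 residual degrees of freedom) by edgeR 4.0.16 in R 4.3.3, glmQLFit with robust spread and two-sided glmQLFTest. Counting intervals are exact and cover counting error only. The fit was tested on simulated data. DESeq2 1.42.0 and limma 3.58.1 were alternatives, with other scalings, filters, fewer libraries and a replicate block.

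Genes are named by a rule: the PSK pathway, the 12 highest and 12 lowest separated changes of at least 2-fold, up to 10 crossed genes, 10 moved off in each direction, 8 moved toward and 8 away, each at 5 CPM or more, and up to 4 called members per list with the smallest p. Other list members, the 3 promoters shown and examples with all libraries given were chosen after their values were seen. Members and lists were chosen with earlier results of these data known. PSK genes, PEN3 and PLT3 were taken by RefSeq symbol or synonym, since the table gives these names to other genes, and 3 names that matched genes of other families (PLT4, WIP4, NLM9) were dropped. Names that matched no gene were left out too, so lists can be incomplete. Only 3 of 7 thalianol names and 14 of 21 hypoxia names were matched. The promoter window is the 300 bases before each gene start. RefSeq (TAIR10.1) gene starts and ends equalled those of the table for nearly all genes of chromosomes 1 to 5 (8656 of 8656 on chromosome 1).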

Additional observations from a re-analysis of the deposited data

How the results depend on the processing

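With 1 choice changed at a time, no gene called against Col-0 was called in the opposite direction under any of the 21 alternatives. Calls against Col-0 numbered 5505 (only the 6 libraries compared) to 6261 (limma-voom), genes past Col-0 227 to 272 and genes still separated 4298 to 4582. Leaving out each of the 12 libraries in turn gave 5119 to 6187 calls (2428 to 2959 higher, 2691 to 3228 lower) and 1361 to 1497 at 2-fold (244 to 270 higher, 1110 to 1227 lower). Genes still separated ranged over 3734 to 4553, those moved toward Col-0 over 41 to 116, those moved away over 125 to 324, those past Col-0 over 145 to 308 (crossed 8 to 22, moved off 135 to 286) and those no longer called over 800 to 1670. The causes of these moves were not tested. Ends were set by leaving out PSK-treated tpst replicate 3 (145 past Col-0), Col-0 replicate 3 (324 moved away, 116 toward, 308 past), Col-0 replicate 2 (8 crossed) and untreated tpst replicate 1 (125 moved away, 800 no longer called).

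Of 3735 repeats over 178 named genes, 3700 kept direction and side of the threshold, 33 lost the call (of PSK2, CIPK14, CYP71A16, CYP82F1, MGP, RVE4, SOB7, ZAT10, DWF5 and AT4G10265) and 2 turned sign, both of SBT1.1, which was called in none (-0.207 to 0.0537 without each library in turn). The replicate numbers did not pair the samples: deviations of same-numbered PSK-treated tpst and Col-0 libraries correlated at -0.0805 to 0.045. A fit with the replicate block gave 6137 calls and 260 genes past Col-0. Small list counts also moved: pattern response genes that were higher numbered 0 to 3, touch genes higher 3 to 5, extensins lower 2 to 4, hypoxia genes higher 2 to 4 and lower 3 to 5. Scaling by RLE moved the share of higher genes among calls to 49.2% and upper-quartile scaling to 44%. Searching TTGACT or TTGACC, a motif added after seeing the data, gave 59.9% in place of 64% among genes past Col-0 and lower, and 18.3% in place of 35% among those higher, where all promoters held 31.9% in place of 37.8%. Depth limits genes such as WRKY49, with 8 counts over the 3 PSK-treated tpst libraries.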

Other observations

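Cell wall loosening genes were mixed. Of 25 expansins tested 9 were lower and 5 higher in PSK-treated tpst than in Col-0. Of 28 XTH genes, which remodel xyloglucan, 7 were lower and 8 higher. Over all genes tested 15.6% were lower and 14.1% higher, so calls in both directions are not particular to these families. EXPA1 (AT1G69530), an expansin, had 55.9, 53.1 and 45.0 CPM in PSK-treated tpst, 69.0, 61.0 and 60.6 CPM in untreated tpst and 92.5, 89.9 and 80.6 CPM in Col-0, so PSK moved it further below Col-0 (-0.77 ± 0.08, edgeR adjusted p = 1.6e-08). XTH6 moved further above Col-0, with 33.1, 30.2 and 33.8 CPM in PSK-treated tpst, 20.2, 21.1 and 22.9 CPM in untreated tpst and 15.8, 15.9 and 15 CPM in Col-0 (1.05 ± 0.08, adjusted p = 2e-10). Of 7 extensins, the structural wall proteins EXT3 (-1.28) and EXT12 (-0.95) were lower and EXT4 (0.30) was higher.

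Of 17 brassinosteroid genes 6 (35.3%, against 15.6% of all genes) were lower than Col-0 and none was higher. The synthesis gene CYP90D1 was among the lower ones (-0.55 ± 0.11, adjusted p = 3.25e-04). Leaving out 1 library, with the cause not tested, brought the lower ones to 2 (without Col-0 replicate 1) or 3 (without PSK-treated tpst replicate 1 or 2). Of 10 touch and wound genes 5 (50.0%, against 14.1% of all genes) were higher and none lower. The calmodulin-like TCH2 had 34.4, 31.1 and 27.6 CPM in PSK-treated tpst, 23.1, 27.5 and 29.7 CPM in untreated tpst and 17.5, 19.0 and 22.8 CPM in Col-0 (0.65 ± 0.11, adjusted p = 5.01e-05). Both flower markers tested, AGL18 (0.06) and PI (0.80), were not called.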
